A study of Mus musculus with 48 samples.

Results

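Ovary somatic cells isolated from 6-week-old mice (P6w) were compared with gonadal somatic cells (GSCs) separated from female gonads at embryonic stage E16.5, by bulk RNA sequencing of poly(A) RNA. The comparison used 4 of the 48 samples of the series, chosen by their labels alone, with 2 libraries of each stage. All of these mice were C57BL/6, and the labels of both groups name no altered genotype and no treatment. GSCs of E12.5 and E13.5 female gonads of the same strain, with 2 libraries each, are given beside them for context. These libraries also entered the statistical model, and so its filter, scaling and dispersion. Germ cell depletion with SSEA1 beads is described in the methods for E12.5 gonads, and the way the E16.5 and P6w cells were separated is not given in the sources used here. Nothing in the labels says that the libraries of a stage came from separate animals, so the spread between them may be technical. The p values rest on this spread, pooled over the 4 stages. In bulk RNA, fewer cells of a type and less RNA per cell cannot be told apart.

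At E16.5 the female mouse gonad holds pregranulosa cells around germ cells that are passing through meiotic prophase, together with stromal, endothelial and surface epithelial cells. In the ovary after puberty, granulosa cells surround growing oocytes, respond to follicle-stimulating hormone (FSH), secrete inhibins and activins, and convert androgens of the neighbouring theca cells into oestrogens. Wnt4 and Rspo1, which act through β-catenin, are known for their part in setting the ovarian fate of the fetal gonad.

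Follicle and steroid hormone genes were higher at P6w, and most fetal patterning, imprinted and matrix genes were lower. Inha, the inhibin α subunit, was 175-fold higher at P6w, and Cyp11a1, which makes the first steroid from cholesterol, was 407-fold higher. Igf2, a fetal growth factor, was 114-fold lower, and Wnt4 was 7.25-fold lower. Foxl2, the granulosa cell transcription factor, rose 2.45-fold, whereas Gata4, which marks gonadal somatic cells, did not pass the test.

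The total counts were 21063754 and 15835114 at E16.5 and 12799313 and 12694769 at P6w. Levels are given as CPM, the usual scaling of counts to library size, here with TMM factors. A count of 3 corresponded to 0.130 to 0.250 CPM in these libraries. Fold changes are P6w over E16.5 from edgeR's quasi-likelihood test, and a gene was called at a Benjamini-Hochberg adjusted p below 0.05 over all genes tested. Of the 16398 genes tested, 9206 were called, or 56.1%. Higher levels at P6w were called for 4315 genes (26.3%) and lower levels for 4891 (29.8%). Every count of list members below is to be read beside these shares. The lists were written with earlier results of these data known, and a gene can be in more than 1 list. Their counts are thus not independent evidence of direction. The labels place the first E16.5 library on lane 5 and the other 3 libraries on lane 1. Without the first E16.5 library the contrast compared lane 1 libraries, though the E12.5 and E13.5 libraries in the fit were on lane 5. The lone E16.5 library gave no spread of its own. No gene called in both fits changed direction.

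**Figure D1:**
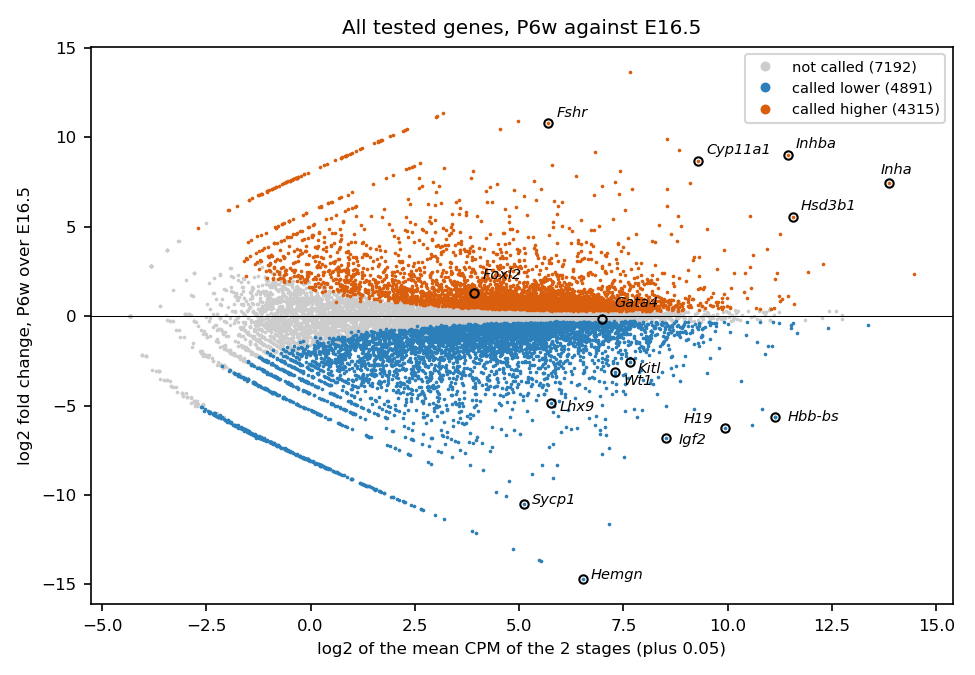
Each point is 1 of the 16398 tested genes, with the log2 of the mean CPM of both stages (plus 0.05) on the x axis and the log2 fold change of P6w over E16.5 on the y axis. Orange marks the 4315 genes called higher at P6w, blue the 4891 called lower and grey the others. Inha and Hsd3b1 lie at the upper right, and Igf2, H19 and the erythroid genes Hbb-bs and Hemgn at the lower right and bottom. The slanted rows of points at the left hold genes with few or no counts at one of the stages.

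The E16.5 replicates differed from each other in more genes than the P6w replicates. A gap of over 2-fold between the E16.5 libraries was seen in 62 of 7481 genes of 20 CPM or more, against 4 of 7308 between the P6w libraries. Such a gap was seen in 0 of 7415 genes at E12.5 and 5 of 6944 at E13.5. As the p values pool the spread of all stages, they may understate that of E16.5. The largest differences were in Hbb-y and Hba-x, the embryonic globins, at 552 and 15.9 CPM and 105 and 9.43 CPM in the first and second E16.5 library. Mbnl1, Osbpl8 and Serinc1 followed among the genes lower in the second library. Higher in the second library were Arl4d (8.66 and 34.8 CPM), Id1 (25.4 and 93.6 CPM) and Dnajb1 (478 and 1660 CPM), followed by Adm and Edn2. The 15 tested genes of the early response to cell dissociation, such as Fos and Jun, summed to 7408 and 14180 CPM at E16.5 and 6918 and 6046 CPM at P6w. In this list 10 genes were called lower at P6w and 1 higher, beside 29.8% and 26.3% of all tested genes. Ier2 (643 and 1381 CPM at E16.5 and 1467 and 1104 CPM at P6w) and Fos were not called. Among those called lower was Dusp1 (305 and 759 CPM at E16.5 and 41.2 and 47.3 CPM at P6w). Others were Atf3 (369.8 and 468 CPM at E16.5 and 50.1 and 46.3 CPM at P6w) and Jun (861 and 1692 CPM at E16.5 and 263 and 246 CPM at P6w). The P6w libraries differed in Hsd3b6 (52.3 and 2.91 CPM), Zp3 (56.1 and 21.5 CPM), Gdf9 (53.3 and 21.1 CPM) and Amh (157 and 68.0 CPM), all higher in the first.

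Genes of cell types other than ovarian somatic cells were present and differed between the stages. Of the meiotic prophase list, 23 of 24 tested members were called lower at P6w, and their summed level was 686 and 903 CPM at E16.5 and 91.4 and 97.3 CPM at P6w. Smc1b, the meiotic cohesin, had 224 and 342 CPM in the E16.5 libraries and 1.96 and 1.41 CPM in the P6w libraries. Sycp1, of the synaptonemal complex, had 71.2 and 66.7 CPM at E16.5 and 0.0817 and 0 CPM at P6w, and was 1681-fold (95% counting interval 302 to 66433) lower at P6w by its counts, an interval that covers counting error only. Of the germ cell list, 13 of 18 were called lower, among them Dazl (49.9 and 56.3 CPM at E16.5 and 3.68 and 4.83 CPM at P6w). Tex101 had 67.1 and 117 CPM at E16.5 and no count at P6w, at least 372-fold lower against a floor of 3 counts per library. Called higher were Tdrd5 (8.79 and 11.9 CPM at E16.5 and 179.7 and 188 CPM at P6w) and Dnd1 (8.35 and 14.1 CPM at E16.5 and 19.04 and 19.6 CPM at P6w), the latter not without the first E16.5 library (adjusted p = 0.0585). The E16.5 cells labelled as somatic thus carried meiotic germ cell transcripts in both libraries, and the part of germ cells in the changes below was not tested.

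Oocyte genes were higher at P6w and unequal between its libraries. Of the oocyte list, 15 of 21 tested members were called higher and 3 lower, and they summed to 40.6 and 50.9 CPM at E16.5 and 248 and 128 CPM at P6w. Zp3, which encodes an egg coat protein, had 0.0866 and 0.490 CPM at E16.5 and 56.1 and 21.5 CPM at P6w. Gdf9, an oocyte growth factor, had 4.85 and 3.79 CPM at E16.5 and 53.3 and 21.1 CPM at P6w. Zp2 had no count at E16.5 and 7.11 and 5.83 CPM at P6w, at least 41.3-fold higher. Figla, a transcription factor of early oocytes, was higher at E16.5 (8.22 and 12.2 CPM at E16.5 and 0.572 and 0.166 CPM at P6w; log2 fold change −4.75 ± 0.64 SE, adjusted p = 2.22e-05).

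Blood and mast cell genes were lower at P6w. All 12 tested erythroid genes were called lower, from a sum of 15010 and 11110 CPM to 266 and 297 CPM, and the 3 embryonic globin genes summed to 663 and 28.8 CPM at E16.5 and 0.163 and 0 CPM at P6w. Hemgn had 185 and 182 CPM at E16.5 and no count at P6w (at least 742-fold lower). All 7 tested mast cell genes were called lower, from 582 and 572 CPM to 18.1 and 19.2 CPM. Cma1 had 241 and 260.4 CPM at E16.5 and 1.55 and 0.832 CPM at P6w and Tpsb2 had 246 and 242 CPM at E16.5 and 2.45 and 2.58 CPM at P6w. The mast cell receptor genes Fcer1a, Ms4a2, Mrgprb1 and Mrgprb2 had 0 to 2 counts in each of these libraries. The macrophage list summed to 189 and 178 CPM at E16.5 and 301 and 311 CPM at P6w, with 9 of 14 tested members called higher. Lyz2 was the most abundant (78.5 and 56.2 CPM at E16.5 and 103 and 101 CPM at P6w). Their part in the other changes was not tested.

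The stromal, epithelial and vascular lists were also lower. The stromal fibroblast list summed to 3445 and 3096 CPM at E16.5 and 634 and 719 CPM at P6w, with 9 of 13 members called lower. Pdgfra, a receptor of stromal cells, had 43.5 and 37.1 CPM at E16.5 and 3.92 and 3.33 CPM at P6w, whereas Dpt had 22.5 and 20.01 CPM at E16.5 and 23.4 and 23.1 CPM at P6w and was not called. The surface epithelium list summed to 1583 and 1699 CPM at E16.5 and 273 and 309.7 CPM at P6w, with 11 of 14 lower. Krt18 had 612 and 801 CPM at E16.5 and 86.1 and 104 CPM at P6w. In the other direction, the mesothelial gene Msln had 4.03 and 2.02 CPM at E16.5 and 27.2 and 33.3 CPM at P6w. The endothelial list summed to 368 and 398 CPM at E16.5 and 136 and 143 CPM at P6w, with 14 of 17 lower, among them Kdr (58.9 and 44.6 CPM at E16.5 and 5.88 and 7.16 CPM at P6w). Of the mesonephric and duct genes 6 of 9 were called lower, led in level by Gata3 (72.8 and 104 CPM at E16.5 and 5.56 and 6.74 CPM at P6w). Sox9, a Sertoli cell factor that other epithelia and cartilage also express, was at 124 and 129 CPM at E16.5 and 1.47 and 1.33 CPM at P6w, and 6 of the 10 tested Sertoli genes were called lower. The 2 called higher, Amh and Dhh, are also granulosa cell genes. Y chromosome genes summed to 9.50 and 8.40 CPM in the E12.5 libraries and at most 0.254 CPM in each later library. The source of these transcripts was not tested. Smooth muscle genes were split, 5 higher and 6 lower of 13. Actg2 had 2.16 and 2.69 CPM at E16.5 and 29.5 and 36.3 CPM at P6w and Des had 17.4 and 15.6 CPM at E16.5 and 5.47 and 5.74 CPM at P6w. Of the adipocyte, ciliated epithelium, liver and lymphocyte lists, 3 members each were called higher, out of 5, 8, 12 and 9 tested, and 1, 2, 3 and 0 lower. The background was 26.3% higher and 29.8% lower. Apoa1, of the liver list, had 1.73 and 1.35 CPM at E16.5 and 122 and 133 CPM at P6w.

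**Figure D2:**
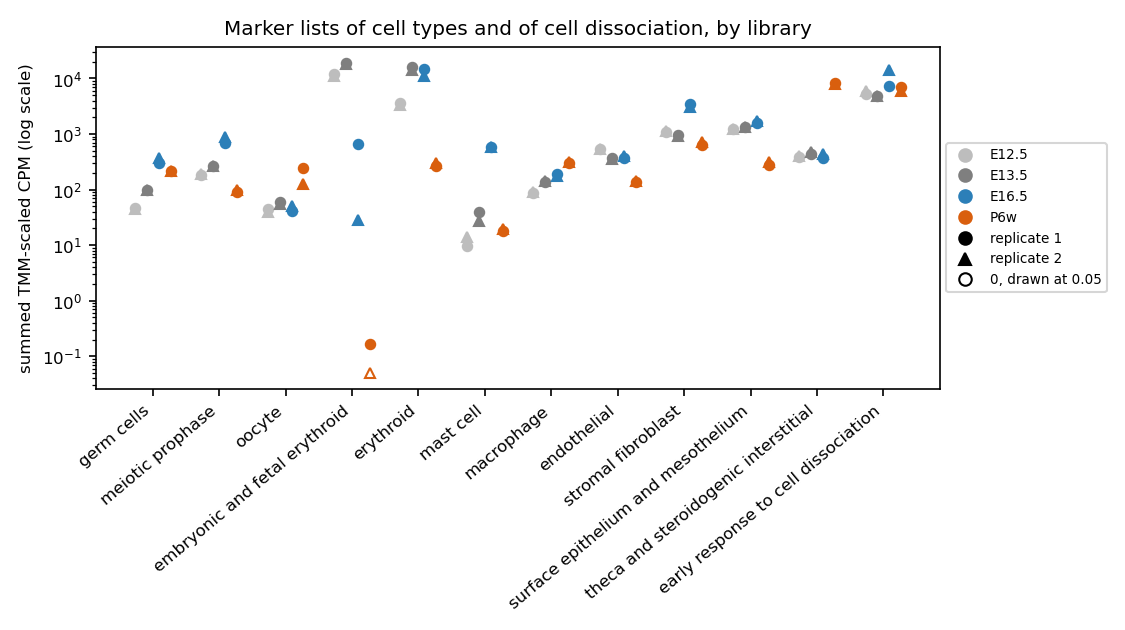
Summed TMM-scaled CPM of the marker lists (log scale) in each of the 8 GSC libraries, with the stage by colour and the replicate by symbol, and an open symbol for a sum of 0. The meiotic, erythroid, mast cell, stromal and surface epithelium sums of both P6w libraries lie below both E16.5 libraries, while the theca and oocyte sums lie above. The embryonic erythroid sums of the E16.5 libraries stand apart from each other.

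Genes of the follicle list, which was written with earlier results of these data known, were raised almost throughout. Of the follicle and granulosa cell list, 25 of 30 tested members were called higher and 2 lower, against 26.3% and 29.8% of all tested genes. Their median log2 fold change was 4.07, beside −0.04 for all tested genes. Foxl2, which keeps granulosa cells in their identity, had 7.88 and 9.55 CPM in the E16.5 libraries and 20.3 and 22.3 CPM in the P6w libraries (log2 fold change 1.29 ± 0.20 SE, adjusted p = 4.95e-05). Both P6w libraries were above both E16.5 libraries, by a modest step. The libraries of the stages did not overlap in 76.6% of tested genes, in one direction or the other. Gata4 had 142 and 127 CPM in the E16.5 libraries and 120.3 and 119 CPM in the P6w libraries, with log2 fold change −0.17 ± 0.12 SE, adjusted p = 0.233. It was called lower with total counts as the only scaling (adjusted p = 0.0256) and without the second E16.5 library (adjusted p = 0.0488).

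Receptors of hormones that act on the follicle rose. Fshr, the FSH receptor (GRCm38 chr17:88984952-89200675), had 0 and 2 counts in the E16.5 libraries and 98.9 and 109 CPM in the P6w libraries, and was 2047-fold (95% counting interval 566 to 16914) higher. Lhcgr, the receptor of luteinizing hormone, had 8.31 and 8.38 CPM in the E16.5 libraries and 139 and 147 CPM in the P6w libraries (log2 fold change 4.09 ± 0.16 SE, adjusted p = 1.75e-11). Esr2, the oestrogen receptor of granulosa cells, had 2.12 and 1.84 CPM in the E16.5 libraries and 229 and 209 CPM in the P6w libraries (log2 fold change 6.78 ± 0.22 SE, adjusted p = 3.12e-12). In each of these genes the libraries of a stage lay close together and far from the other stage. Prlr, the prolactin receptor, rose from 26.2 and 18.4 CPM to 239 and 244 CPM, and Ptgfr, the receptor of the luteolytic prostaglandin, from 1.86 and 1.22 CPM to 36.8 and 38.2 CPM.

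Structural and signalling genes of the follicle followed. Gja1, the connexin of granulosa cell gap junctions, had 205 and 335 CPM in the E16.5 libraries and 3532 and 3844 CPM in the P6w libraries (log2 fold change 3.77 ± 0.19 SE, adjusted p = 2.65e-10). Serpine2, a protease inhibitor secreted by granulosa cells, had 60.9 and 60.1 CPM in the E16.5 libraries and 2869.7 and 2928 CPM in the P6w libraries, with replicates within a few percent of each other. Greb1, an oestrogen-responsive gene, had 48.4 and 42.5 CPM at E16.5 and 859 and 803 CPM at P6w. Nap1l5, an imprinted gene, had 1.26 and 1.16 CPM at E16.5 and 339.6 and 342 CPM at P6w. Nr5a1 (SF-1), the nuclear receptor that drives steroid genes, had 82.4 and 118 CPM in the E16.5 libraries and 347 and 295 CPM in the P6w libraries (log2 fold change 1.68 ± 0.16 SE, adjusted p = 3.42e-07). Its relative Nr5a2 had 3.20 and 2.57 CPM in the E16.5 libraries and 348 and 323 CPM in the P6w libraries (log2 fold change 6.84 ± 0.18 SE, adjusted p = 3.35e-13). Amhr2, the receptor of anti-Müllerian hormone, had 605 and 846 CPM at E16.5 and 609 and 562 CPM at P6w and was not called (adjusted p = 0.0739). The cyclin gene Ccnd2 had 1116 and 1267 CPM at E16.5 and 1065 and 989.8 CPM at P6w and was not called either (adjusted p = 0.122). The members called lower were Kitl and Gata6. Kitl, the ligand by which granulosa cells reach the oocyte's KIT receptor, had 334 and 353 CPM in the E16.5 libraries and 57.1 and 58.5 CPM in the P6w libraries (log2 fold change −2.57 ± 0.12 SE, adjusted p = 8.53e-11). Gata6 had 100.1 and 79.0 CPM at E16.5 and 63.0 and 72.5 CPM at P6w (log2 fold change −0.40 ± 0.14 SE, adjusted p = 0.0232). It was not called without the first E16.5 library (adjusted p = 0.15) or the first P6w library (adjusted p = 0.175), nor in the fit of the 4 E16.5 and P6w libraries (adjusted p = 0.0539). Amhr2 and Ccnd2 were called lower without the first E16.5 library (adjusted p = 3.91e-05 and 0.00618) and with total counts as the only scaling (adjusted p = 0.00622 and 0.00616). Amhr2 was also called lower with upper quartile factors, without the filter and with length or GC trends, at an adjusted p of 0.0248 to 0.0402.

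**Figure D3:**
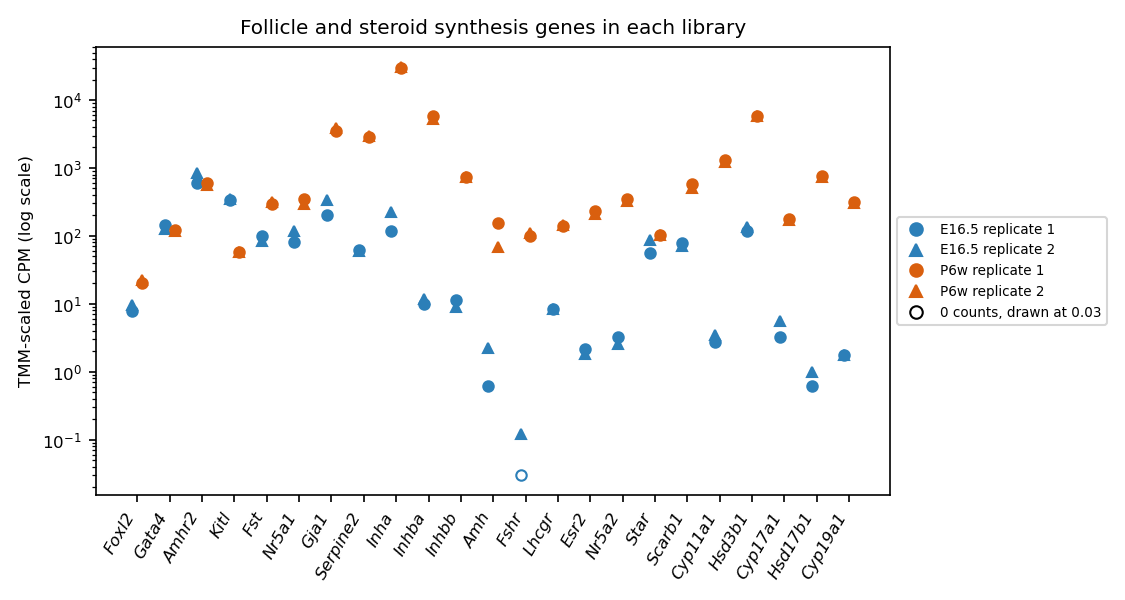
TMM-scaled CPM (log scale) of follicle and steroid synthesis genes in the E16.5 libraries (blue) and the P6w libraries (orange), with replicate 1 as circles and replicate 2 as triangles and an open symbol for 0 counts. Inha, Inhba, Hsd3b1 and Cyp11a1 rise to more than 1000 CPM at P6w, Gata4 and Amhr2 were not called, and Kitl lies lower at P6w.

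Among the ligands of the TGF-β family, the inhibin and activin subunits rose and others moved in both directions. Of 19 tested ligands 8 were called higher and 8 lower, beside 26.3% and 29.8% of all tested genes. Inha (GRCm38 chr1:75507077-75510366) had 118 and 223 CPM in the E16.5 libraries and 29423 and 30235 CPM in the P6w libraries (log2 fold change 7.45 ± 0.27 SE, adjusted p = 7.76e-12). Per kilobase of the merged annotated exons of the gene, it went from 116 to 20223 CPM per kb. Inhba, which with Inha forms inhibin A and by itself activin A, had 9.87 and 11.9 CPM in the E16.5 libraries and 5842 and 5233 CPM in the P6w libraries (log2 fold change 8.999 ± 0.18 SE, adjusted p = 5.86e-14). Inhbb, the other β subunit, had 11.5 and 9.06 CPM in the E16.5 libraries and 729.9 and 736 CPM in the P6w libraries (log2 fold change 6.15 ± 0.15 SE, adjusted p = 2.47e-13). On the scale of CPM per kb at P6w, Inha stood at 20223, Inhba at 867 and Inhbb at 172. Amh, the anti-Müllerian hormone made by growing follicles, had 0.606 and 2.20 CPM in the E16.5 libraries and 157 and 68.0 CPM in the P6w libraries (log2 fold change 6.42 ± 0.46 SE, adjusted p = 1.55e-08), with the P6w libraries more than 2-fold apart. Bmp3 rose from 4.93 and 3.67 CPM to 88.7 and 113 CPM, and the oocyte ligands Gdf9 and Bmp15 rose with the other oocyte genes.

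The ligands called lower included Bmp7 (11.6 and 8.32 CPM at E16.5 and 1.23 and 0.832 CPM at P6w) and Gdf10 (8.79 and 8.02 CPM at E16.5 and 0 and 0.416 CPM at P6w). Gdf11 had 73.5 and 128 CPM at E16.5 and 41.7 and 37.5 CPM at P6w and Tgfb2 had 107 and 88.6 CPM at E16.5 and 8.82 and 12.6 CPM at P6w, also called lower. Bmp5 and Gdf6, also called lower, had at most 2 counts in any P6w library, and Gdf6 was not called without the second of them (adjusted p = 0.0609). Of the receptors and targets 6 of 25 were called higher and 11 lower, beside 26.3% and 29.8% of all tested genes. Bmpr1b, a BMP receptor needed in granulosa cells, had 6.41 and 3.37 CPM in the E16.5 libraries and 75.8 and 79.5 CPM in the P6w libraries (log2 fold change 3.96 ± 0.25 SE, adjusted p = 3.34e-09). Bmpr2 had 138 and 68.4 CPM at E16.5 and 397 and 459.9 CPM at P6w (log2 fold change 2.05 ± 0.25 SE, adjusted p = 4.51e-06). The Id genes are targets of BMP signalling. Id1 was called lower (25.4 and 93.6 CPM at E16.5 and 28.0 and 28.3 CPM at P6w; log2 fold change −1.07 ± 0.37 SE, adjusted p = 0.0230). It was not called by DESeq2 (adjusted p = 0.159) or without the second E16.5 library (log2 fold change 0.15, adjusted p = 0.376) or either P6w library (adjusted p = 0.117 and 0.114). Id2 (392 and 435 CPM at E16.5 and 123 and 137 CPM at P6w) and Id4 (12.03 and 9.79 CPM at E16.5 and 0.572 and 1.41 CPM at P6w) were called lower. Id3 (1139.8 and 2332 CPM at E16.5 and 2268 and 2470 CPM at P6w; adjusted p = 0.0937) was not called. It was called higher without the second E16.5 library (adjusted p = 3.26e-09) and without the filter on low counts (adjusted p = 0.000528). Of the antagonists, 5 of 14 were higher and 6 lower. Grem1, which binds BMPs outside the cell, had 0.130 and 0.734 CPM at E16.5 and 226 and 226 CPM at P6w (log2 fold change 9.17 ± 0.32 SE, adjusted p = 1.54e-11). Fst, which binds activin, had 100.1 and 83.8 CPM in the E16.5 libraries and 298 and 319 CPM in the P6w libraries (log2 fold change 1.74 ± 0.12 SE, adjusted p = 1.35e-08). Bambi, a decoy receptor, had 68.7 and 152 CPM at E16.5 and 1.72 and 3.66 CPM at P6w and Fstl1 had 519 and 583 CPM at E16.5 and 35.2 and 45.2 CPM at P6w, both lower at P6w.

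Steroid hormone genes rose with the follicle genes, and the lists share members. Cyp19a1, Hsd17b1, Lhcgr, Nr5a1 and Nr5a2, all called higher, are in both. Of the steroid synthesis and cholesterol supply list, 20 of 27 tested members were called higher and 4 lower, with a median log2 fold change of 1.96, or 1.68 with genes of 3 counts or fewer at their bounds. Scarb1, the receptor that takes up cholesterol from lipoproteins, had 77.9 and 70.6 CPM in the E16.5 libraries and 571 and 512 CPM in the P6w libraries (log2 fold change 2.87 ± 0.13 SE, adjusted p = 9.91e-11). Star, which carries cholesterol into the mitochondrion, moved little, with 55.8 and 88.0 CPM in the E16.5 libraries and 105 and 102 CPM in the P6w libraries (log2 fold change 0.53 ± 0.19 SE, adjusted p = 0.0253). Star was not called without the first E16.5 library (adjusted p = 0.194) or without either P6w library (adjusted p = 0.117 and 0.0902), nor with total counts as the only scaling (adjusted p = 0.0882). Cyp11a1, which cuts the cholesterol side chain (GRCm38 chr9:58006411-58027023), had 2.73 and 3.49 CPM in the E16.5 libraries and 1289 and 1211 CPM in the P6w libraries (log2 fold change 8.67 ± 0.18 SE, adjusted p = 5.86e-14). The E16.5 levels were a few CPM, and both P6w libraries exceeded 1000 CPM. Hsd3b1, which makes progesterone from pregnenolone, had 118 and 134 CPM in the E16.5 libraries and 5909.5 and 5872 CPM in the P6w libraries (log2 fold change 5.55 ± 0.14 SE, adjusted p = 3.35e-13), and per length it was the higher of the pair at P6w, with 3176 CPM per kb against 260.2 CPM per kb for Cyp11a1.

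The later enzymes rose as well. Cyp17a1, the androgen-forming enzyme of theca cells, had 3.25 and 5.51 CPM in the E16.5 libraries and 175 and 173 CPM in the P6w libraries (log2 fold change 5.34 ± 0.23 SE, adjusted p = 5.81e-11). Cyp19a1, the aromatase of granulosa cells, had 1.73 and 1.77 CPM in the E16.5 libraries and 317 and 305 CPM in the P6w libraries (log2 fold change 7.47 ± 0.29 SE, adjusted p = 1.66e-11). Hsd17b1, which makes oestradiol from oestrone, had 0.606 and 0.979 CPM in the E16.5 libraries and 753 and 738 CPM in the P6w libraries (log2 fold change 9.92 ± 0.22 SE, adjusted p = 1.14e-13). Both sets of enzymes thus rose in the same libraries, those known from theca and those known from granulosa cells. Cyb5a, a partner of Cyp17a1, had 194 and 247 CPM at E16.5 and 1005 and 1091 CPM at P6w. Akr1c18, which inactivates progesterone, had 7.88 and 6.98 CPM at E16.5 and 48.9 and 55.5 CPM at P6w. Of the electron carriers of Cyp11a1, the reductase Fdxr rose (60.7 and 79.1 CPM at E16.5 and 291 and 250.4 CPM at P6w) and ferredoxin Fdx1 fell (61.2 and 107 CPM at E16.5 and 41.3 and 45.1 CPM at P6w; log2 fold change −0.96 ± 0.21 SE, adjusted p = 0.00110). Mc2r, the receptor of adrenocorticotropic hormone, had 6.23 and 6.61 CPM at E16.5 and 0.245 and 0.166 CPM at P6w and was 31.0-fold (95% counting interval 13.1 to 96.3) lower at P6w by its counts. The theca and steroidogenic interstitial list summed to 370.2 and 441 CPM at E16.5 and 8153 and 8002 CPM at P6w, most of it Hsd3b1 and Cyp11a1, which granulosa and luteal cells also express. Insl3, a defining theca gene, had 1.30 and 1.16 CPM at E16.5 and 2.21 and 2.16 CPM at P6w and was not called (adjusted p = 0.186).

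Cholesterol synthesis rose by smaller steps, with 17 of 26 tested members called higher, 2 lower and a median of 0.78. Scap, the sterol sensor, had 91.2 and 105 CPM in the E16.5 libraries and 512 and 449.5 CPM in the P6w libraries (log2 fold change 2.30 ± 0.12 SE, adjusted p = 6.56e-10). Fdps, which makes farnesyl diphosphate, had 109 and 137 CPM in the E16.5 libraries and 437 and 448 CPM in the P6w libraries (log2 fold change 1.85 ± 0.13 SE, adjusted p = 9.73e-09). Sc5d, of the last steps, had 18.0 and 19.4 CPM at E16.5 and 67.2 and 82.5 CPM at P6w. Nsdhl had 18.1 and 19.8 CPM at E16.5 and 52.2 and 61.1 CPM at P6w. Hmgcs1, an early enzyme of the pathway, fell (167 and 208 CPM at E16.5 and 93.5 and 115 CPM at P6w; log2 fold change −0.85 ± 0.14 SE, adjusted p = 8.54e-05), as did Insig1, which holds the sterol sensor back (42.6 and 76.2 CPM at E16.5 and 26.5 and 27.5 CPM at P6w; log2 fold change −1.14 ± 0.22 SE, adjusted p = 3.83e-04).

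RefSeq promoter windows on GRCm38, from 250 bases before to 50 bases after a start site, were found for 29 of the 41 called members of these lists, 37 windows in all. A match to the motifs below was found in 12 of the 37. To show such matches, 4 windows that hold one are printed, and that of Hsd3b1, which holds none, in lower case with every match to the searched motifs in capitals. Searched on both strands were the SF-1 element CAAGGTCA, the cAMP response element TGACGTCA, its shorter part TGACG, which lies within the full element, and the sterol element TCACNCCA.
Sc5d, chr9:42264251-42264550, minus strand: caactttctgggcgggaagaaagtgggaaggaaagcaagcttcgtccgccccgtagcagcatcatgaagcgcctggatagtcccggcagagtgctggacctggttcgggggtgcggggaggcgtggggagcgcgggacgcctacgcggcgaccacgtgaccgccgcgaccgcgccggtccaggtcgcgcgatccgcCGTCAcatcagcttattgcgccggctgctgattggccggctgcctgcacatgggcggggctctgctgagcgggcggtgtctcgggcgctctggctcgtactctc
Hsd3b1, chr3:98859745-98860044, minus strand: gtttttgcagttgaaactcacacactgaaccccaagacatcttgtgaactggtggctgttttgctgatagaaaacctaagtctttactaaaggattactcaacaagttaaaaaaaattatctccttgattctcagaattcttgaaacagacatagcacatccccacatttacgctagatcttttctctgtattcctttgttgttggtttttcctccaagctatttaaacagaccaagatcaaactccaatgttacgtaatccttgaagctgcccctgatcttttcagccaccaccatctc
Dhcr7, window 1 of 3, chr7:143822917-143823216, plus strand: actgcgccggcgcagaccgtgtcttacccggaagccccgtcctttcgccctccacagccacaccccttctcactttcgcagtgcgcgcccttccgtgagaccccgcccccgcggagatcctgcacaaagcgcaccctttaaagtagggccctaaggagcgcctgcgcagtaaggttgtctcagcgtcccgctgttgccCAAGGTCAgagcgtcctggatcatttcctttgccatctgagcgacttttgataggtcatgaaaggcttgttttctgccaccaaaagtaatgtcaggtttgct
Srebf2, chr15:82147019-82147318, plus strand: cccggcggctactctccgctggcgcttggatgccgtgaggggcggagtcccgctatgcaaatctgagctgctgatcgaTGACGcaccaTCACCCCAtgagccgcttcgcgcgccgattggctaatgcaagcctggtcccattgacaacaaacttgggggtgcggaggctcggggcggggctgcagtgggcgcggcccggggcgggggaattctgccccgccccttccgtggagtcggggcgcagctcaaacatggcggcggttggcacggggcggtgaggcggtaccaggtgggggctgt
Hmgcs1, chr13:119690101-119690400, plus strand: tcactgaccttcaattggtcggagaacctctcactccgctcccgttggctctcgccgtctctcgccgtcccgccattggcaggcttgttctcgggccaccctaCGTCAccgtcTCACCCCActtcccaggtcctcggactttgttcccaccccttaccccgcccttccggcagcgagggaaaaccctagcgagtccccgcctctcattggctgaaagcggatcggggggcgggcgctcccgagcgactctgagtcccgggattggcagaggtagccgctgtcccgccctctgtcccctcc
The Sc5d window held the short cAMP element on the reverse strand 54 bases before the start site, and the Hsd3b1 window held no match. Both windows of Cyp11a1 lie far from its GENCODE start and are not printed. The first Dhcr7 window held the SF-1 element 52 bases before the start, and its other windows held no match. Dhcr7, of the last steps of cholesterol synthesis, had 33.3 and 31.7 CPM at E16.5 and 92.3 and 87.5 CPM at P6w (log2 fold change 1.47 ± 0.15 SE, adjusted p = 7.66e-07). Srebf2, the sterol-responsive transcription factor (54.4 and 72.9 CPM at E16.5 and 113 and 97.5 CPM at P6w), and Hmgcs1 held a sterol element next to a short cAMP element. These genes moved in opposite directions at P6w. Over the member windows, the SF-1 element was in 1 of 37 (1.56% of all 32851 windows in the table), the full cAMP element in 0 (1.79%), the short one in 10 (20.8%) and the sterol element in 3 (4.36%). A match describes these letters only.

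Genes of ovulation and of luteal cells moved in both directions. Of 19 tested members of the ovulation and luteal list, 7 were called higher and 9 lower, with a median log2 fold change of −1.31. Their levels summed to 556 and 750.4 CPM at E16.5 and 1022 and 1084 CPM at P6w. Ptgs2, Areg and Ereg, which the luteinizing hormone surge induces in the preovulatory follicle, were near 0 at P6w. Ptgs2, the prostaglandin synthase of ovulation, had 4.37 and 2.57 CPM at E16.5 and 0.0817 and 0.166 CPM at P6w. Areg, an EGF-like ligand, had 1.99 and 5.20 CPM at E16.5 and 0.163 and 0.0832 CPM at P6w. Ereg, of the same kind, had 8.22 and 7.34 CPM at E16.5 and 0.0817 and 0.250 CPM at P6w. By their counts they were 29.3-fold (95% counting interval 9.83 to 144), 26.9-fold (95% counting interval 8.99 to 132) and 47.7-fold (95% counting interval 18.4 to 176) lower at P6w. Edn2, which contracts the follicle wall, had 88.2 and 221 CPM at E16.5 and 5.72 and 7.16 CPM at P6w (log2 fold change −4.58 ± 0.35 SE, adjusted p = 2.88e-08), with E16.5 libraries more than 2-fold apart. Adamts1, a protease of ovulation, had 132 and 114 CPM at E16.5 and 40.4 and 46.8 CPM at P6w. Rgs2 had 144 and 222 CPM at E16.5 and 402 and 433 CPM at P6w and was called higher.

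The transcription factors of the early gonad were reduced. Of 25 tested gonad primordium factors, 2 were called higher and 20 lower, with a median log2 fold change of −2.04. Lhx9, needed for the gonad to form, had 113 and 98.7 CPM in the E16.5 libraries and 3.59 and 3.58 CPM in the P6w libraries (log2 fold change −4.88 ± 0.16 SE, adjusted p = 3.04e-12), and at E12.5 312 and 305 CPM. Wt1, which acts in gonad and kidney formation, had 326 and 240.3 CPM in the E16.5 libraries and 32.2 and 32.3 CPM in the P6w libraries (log2 fold change −3.13 ± 0.15 SE, adjusted p = 1.49e-10). Osr1 had 89.7 and 93.2 CPM at E16.5 and 3.92 and 5.08 CPM at P6w. Irx3 had 42.0 and 40.4 CPM at E16.5 and 2.78 and 2.75 CPM at P6w and Emx2 had 38.3 and 27.4 CPM at E16.5 and 8.17 and 7.82 CPM at P6w. The exceptions were Nr5a1 and Cbx2, a Polycomb protein of the early gonad, at 5.32 and 7.04 CPM at E16.5 and 22.2 and 17.6 CPM at P6w (log2 fold change 1.70 ± 0.21 SE, adjusted p = 4.98e-06).

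No Wnt ligand was called higher at P6w. Of 13 tested Wnt ligands and R-spondins 10 were called lower, with a median of −2.86 (−2.78 with genes at their bounds). In the fit of the 4 E16.5 and P6w libraries alone 1 ligand was called higher. Wnt4 had 218 and 193 CPM in the E16.5 libraries and 28.3 and 28.5 CPM in the P6w libraries (log2 fold change −2.86 ± 0.13 SE, adjusted p = 1.01e-10) and Wnt6 had 87.5 and 98.8 CPM in the E16.5 libraries and 9.97 and 6.91 CPM in the P6w libraries (log2 fold change −3.46 ± 0.17 SE, adjusted p = 2.85e-10). Rspo1, which strengthens Wnt signals through Lgr receptors, had 52.9 and 56.6 CPM in the E16.5 libraries and 6.13 and 4.16 CPM in the P6w libraries (log2 fold change −3.41 ± 0.18 SE, adjusted p = 4.10e-10). In these genes the P6w libraries lay far below every fetal library, with Wnt4 at 307 and 275 CPM at E12.5 and 372 and 337 CPM at E13.5. Wnt5a (37.3 and 33.9 CPM at E16.5 and 3.76 and 4.58 CPM at P6w) and Wnt11 (4.98 and 6.85 CPM at E16.5 and 0.327 and 0 CPM at P6w) were lower too.

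Of the 34 tested Wnt receptors, antagonists and targets, 18 were called lower, 5 higher and 11 neither. Their median log2 fold change was −0.79, or −0.57 with genes at their bounds. The target gene Axin2 was called lower (67.3 and 122 CPM in the E16.5 libraries and 5.96 and 7.49 CPM in the P6w libraries; log2 fold change −3.81 ± 0.25 SE, adjusted p = 5.40e-09). So were the targets Lef1 (12.47 and 11.6 CPM at E16.5 and 0.327 and 0.916 CPM at P6w) and Nkd2 (51.5 and 51.9 CPM at E16.5 and 3.43 and 3.25 CPM at P6w). Sp5, also a target, had 9.09 and 12.2 CPM at E16.5 and 0.163 and 0.166 CPM at P6w and was called lower. Lgr4, a receptor of R-spondins, had 612 and 1043 CPM at E16.5 and 169 and 185 CPM at P6w. Lgr5 had 104 and 95.5 CPM at E16.5 and 10.2 and 13.48 CPM at P6w, whereas Lgr6 of the same family rose (1.99 and 1.84 CPM at E16.5 and 22.7 and 21.0 CPM at P6w; log2 fold change 3.503 ± 0.27 SE, adjusted p = 3.25e-08). The secreted antagonists exchanged places. Sfrp1 fell (686 and 518 CPM in the E16.5 libraries and 23.7 and 35.0 CPM in the P6w libraries; log2 fold change −4.36 ± 0.19 SE, adjusted p = 6.00e-11). Sfrp4 rose (2.77 and 3.49 CPM in the E16.5 libraries and 417 and 417 CPM in the P6w libraries; log2 fold change 7.07 ± 0.24 SE, adjusted p = 4.82e-12). Znrf3, a further target that removes Wnt receptors, changed less (114 and 126 CPM at E16.5 and 78.5 and 89.1 CPM at P6w; log2 fold change −0.52 ± 0.12 SE, adjusted p = 0.00225).

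Hedgehog ligands were higher at P6w and most of the other Hedgehog genes lower. Of 13 tested, 3 were called higher and 7 lower, beside 26.3% and 29.8% of all tested genes. Ihh and Dhh, by which granulosa cells signal to theca cells, both rose. Ihh had 0.563 and 0.245 CPM at E16.5 and 76.0 and 87.1 CPM at P6w (log2 fold change 7.55 ± 0.45 SE, adjusted p = 1.71e-09). Dhh had 0.606 and 0.490 CPM at E16.5 and 20.9 and 19.4 CPM at P6w (log2 fold change 5.16 ± 0.32 SE, adjusted p = 2.60e-09). Ptch1, receptor and target, had 26.6 and 11.3 CPM at E16.5 and 23.7 and 24.6 CPM at P6w and was not called (adjusted p = 0.318). The signal transducer Smo had 68.3 and 83.4 CPM at E16.5 and 89.6 and 78.8 CPM at P6w and was not called either. Ptch1 was called higher without the first E16.5 library (adjusted p = 0.000105) and Smo without the second (adjusted p = 0.0392). Gas1, a coreceptor, had 289 and 182 CPM at E16.5 and 8.74 and 12.3 CPM at P6w (log2 fold change −4.48 ± 0.22 SE, adjusted p = 2.17e-10). The transcription factor Gli3 had 48.9 and 46.8 CPM at E16.5 and 2.86 and 4.58 CPM at P6w, and both were called lower. Gli1, a target, was also lower, at 7.14 and 8.51 CPM at E16.5 and 2.37 and 2.75 CPM at P6w.

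In the Notch pathway 2 of 17 tested members were called higher and 11 lower, with a median of −1.46. The receptor Notch2 had 104 and 128 CPM at E16.5 and 26.8 and 24.8 CPM at P6w (log2 fold change −2.17 ± 0.16 SE, adjusted p = 2.52e-08). The target Hes1 had 10.6 and 15.9 CPM at E16.5 and 0.980 and 0.749 CPM at P6w (log2 fold change −3.91 ± 0.30 SE, adjusted p = 3.71e-08). The related targets Hey2 and Heyl rose. Hey2 had 0.649 and 0.306 CPM at E16.5 and 25.7 and 26.1 CPM at P6w (log2 fold change 5.67 ± 0.34 SE, adjusted p = 1.91e-09). Heyl had 10.0 and 11.4 CPM at E16.5 and 58.0 and 59.4 CPM at P6w (log2 fold change 2.46 ± 0.21 SE, adjusted p = 1.06e-07). Among retinoic acid genes 5 of 19 were higher and 7 lower, near the 26.3% and 29.8% of all tested genes. Aldh1a2, a retinoic acid synthase, had 88.4 and 89.8 CPM at E16.5 and 18.2 and 19.7 CPM at P6w (log2 fold change −2.23 ± 0.13 SE, adjusted p = 1.90e-09). Rdh10, which makes its substrate, had 96.7 and 81.5 CPM at E16.5 and 6.29 and 9.16 CPM at P6w and was lower too. The carrier proteins differed in direction. Crabp2 had 5.15 and 5.69 CPM at E16.5 and 76.9 and 76.7 CPM at P6w. Crabp1 had 10.7 and 11.4 CPM at E16.5 and no count at P6w (at least 44.7-fold lower). Of the receptors, Rarg rose (6.93 and 9.43 CPM at E16.5 and 58.7 and 49.5 CPM at P6w; log2 fold change 2.73 ± 0.20 SE, adjusted p = 1.94e-08). Aldh1a1, a further synthase, had 402 and 239.9 CPM at E16.5 and 539 and 620.2 CPM at P6w (log2 fold change 0.85 ± 0.19 SE, adjusted p = 0.00134).

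**Figure D4:**
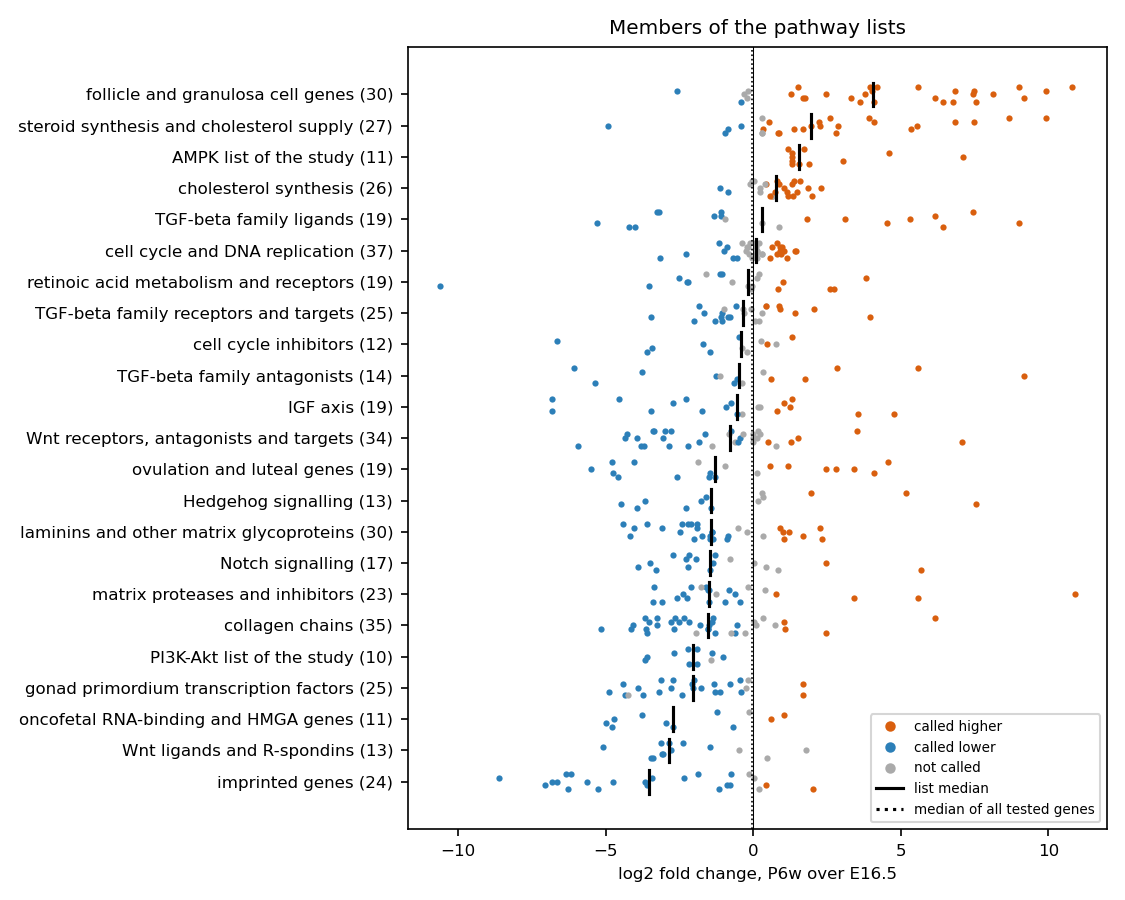
Log2 fold change of P6w over E16.5 (x axis) for every tested member of the pathway lists (rows, with the number tested), coloured by call, with the list median as a black bar and the median of all tested genes as a dotted line. The follicle, steroid and AMPK lists lie to the right, and the imprinted, Wnt ligand, oncofetal and gonad primordium lists to the left.

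Imprinted genes held some of the deepest falls among abundant genes. Of 24 tested, 2 were called higher and 19 lower, with a median log2 fold change of −3.53, or −3.30 with genes at their bounds. The list does not hold every imprinted gene. Nap1l5, given above with the follicle genes, and the antisense RNA Kcnq1ot1 (45.8 and 20.4 CPM at E16.5 and 77.0 and 76.2 CPM at P6w; log2 fold change 1.20 ± 0.24 SE, adjusted p = 6.67e-04) lie outside it and were called higher. The E16.5 libraries were more than 2-fold apart in Kcnq1ot1. It had 158.7 and 155.5 CPM at E12.5, above P6w, and 26.7 and 23.3 CPM at E13.5. Igf2 (GRCm38 chr7:142650766-142666816) had 798 and 656 CPM in the E16.5 libraries and 3.84 and 8.91 CPM in the P6w libraries (log2 fold change −6.84 ± 0.26 SE, adjusted p = 1.35e-11). H19, the RNA next to it, had 1910.2 and 1947 CPM in the E16.5 libraries and 18.95 and 30.6 CPM in the P6w libraries (log2 fold change −6.28 ± 0.20 SE, adjusted p = 2.95e-12). Cdkn1c, a cell cycle inhibitor, had 301 and 233 CPM in the E16.5 libraries and 2.04 and 3.33 CPM in the P6w libraries (log2 fold change −6.63 ± 0.21 SE, adjusted p = 3.21e-12). Dlk1 had 281 and 241 CPM at E16.5 and 1.72 and 5.49 CPM at P6w and Mest had 488 and 399 CPM at E16.5 and 6.94 and 10.9 CPM at P6w. Peg3 had 575 and 387 CPM at E16.5 and 8.99 and 16.1 CPM at P6w. The fetal libraries were all high, with Igf2 at 965 and 988 CPM at E12.5 and 1046 and 1058 CPM at E13.5. Meg3 had 949.8 and 865 CPM at E16.5 and 459 and 356 CPM at P6w. Gnas had 572 and 473 CPM at E16.5 and 288 and 323 CPM at P6w. Nnat rose slightly (156 and 183 CPM at E16.5 and 225 and 227 CPM at P6w; log2 fold change 0.41 ± 0.12 SE, adjusted p = 0.00653; 0.053 in the fit of the 4 E16.5 and P6w libraries). Asb4 rose from 9.31 and 8.02 CPM to 34.0 and 37.6 CPM.

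The oncofetal RNA-binding and HMGA genes followed, with 8 of 11 lower and 2 higher. Igf2bp3, which binds Igf2 and other RNAs, had 70.3 and 59.9 CPM in the E16.5 libraries and 2.21 and 2.75 CPM in the P6w libraries (log2 fold change −4.71 ± 0.18 SE, adjusted p = 1.35e-11). Igf2bp2 had 52.2 and 49.2 CPM at E16.5 and 1.14 and 2.50 CPM at P6w and Igf2bp1 had 57.6 and 59.2 CPM at E16.5 and 1.14 and 7.41 CPM at P6w. Mycn, in the other direction, had 14.1 and 14.6 CPM at E16.5 and 29.9 and 29.0 CPM at P6w. On the IGF axis 6 of 19 were higher and 10 lower, beside 26.3% and 29.8% of all tested genes. Igf1, the postnatal growth factor, had 172 and 141 CPM in the E16.5 libraries and 170.4 and 198 CPM in the P6w libraries and was not called (adjusted p = 0.135; higher at 0.00802 without the first E16.5 library, and 0.0149 and 0.0069 with length and GC trends). Its receptor Igf1r had 81.0 and 81.3 CPM in the E16.5 libraries and 209 and 196 CPM in the P6w libraries (log2 fold change 1.32 ± 0.12 SE, adjusted p = 2.00e-07). The binding proteins Igfbp5 (827 and 851 CPM at E16.5 and 118 and 135 CPM at P6w) and Igfbp4 (322 and 393 CPM at E16.5 and 29.2 and 35.0 CPM at P6w) fell. Htra1, a protease that cleaves binding proteins, rose (25.7 and 17.7 CPM at E16.5 and 243 and 264 CPM at P6w).

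**Figure D5:**
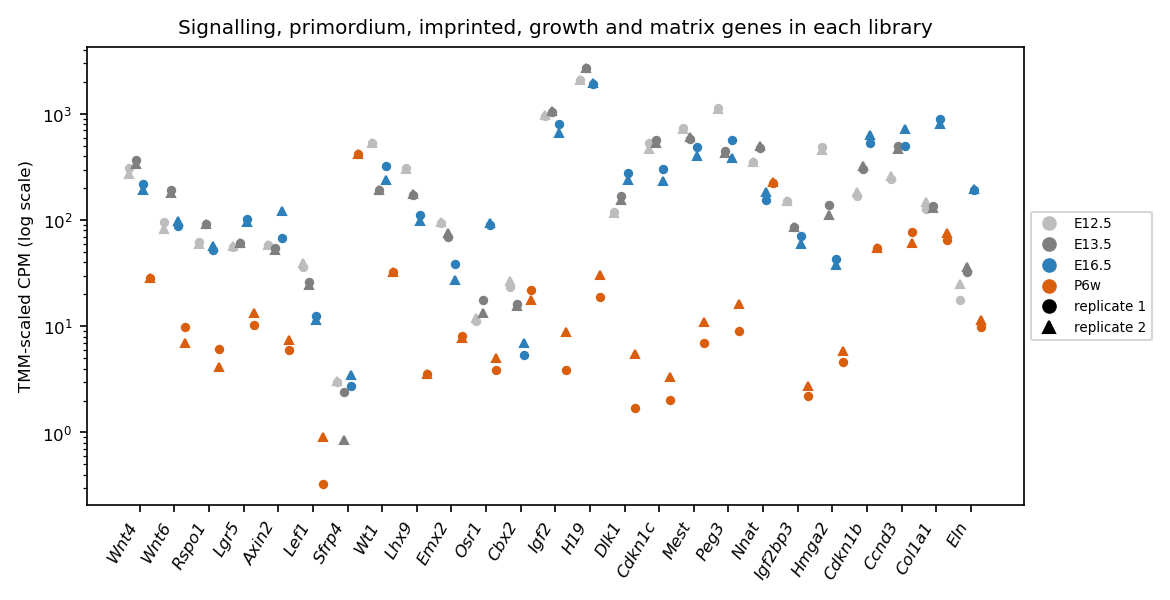
TMM-scaled CPM (log scale) of Wnt, gonad primordium, imprinted, oncofetal, cell cycle and matrix genes in the 8 GSC libraries, with the stage by colour and replicates 1 and 2 as circles and triangles. For most genes, both P6w libraries lie below both E16.5 libraries, while Sfrp4, Cbx2 and Nnat lie above.

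Cell cycle genes showed no common direction. Of 37 tested members 12 were called higher and 7 lower, against 26.3% and 29.8% of all genes, and the median log2 fold change was 0.11. Genes of mitosis were among those that rose. Plk1 had 26.9 and 33.0 CPM at E16.5 and 89.2 and 75.0 CPM at P6w (log2 fold change 1.46 ± 0.16 SE, adjusted p = 1.34e-06). Aurkb had 38.01 and 39.1 CPM at E16.5 and 106 and 101 CPM at P6w (log2 fold change 1.43 ± 0.13 SE, adjusted p = 3.32e-07). The cyclin Ccnb1 had 64.5 and 63.0 CPM at E16.5 and 128 and 133 CPM at P6w (log2 fold change 1.03 ± 0.12 SE, adjusted p = 2.15e-06). Top2a (244 and 183 CPM at E16.5 and 219 and 238 CPM at P6w) was called only without the first E16.5 library (adjusted p = 0.0147). Mcm3, of the replication helicase, had 175 and 145 CPM at E16.5 and 258 and 238 CPM at P6w (log2 fold change 0.63 ± 0.12 SE, adjusted p = 3.62e-04). Of the D cyclins, Ccnd3 fell (504 and 722 CPM at E16.5 and 76.8 and 61.3 CPM at P6w; log2 fold change −3.15 ± 0.17 SE, adjusted p = 6.40e-10). So did Ccnd1 (78.8 and 84.8 CPM at E16.5 and 16.4 and 17.1 CPM at P6w; log2 fold change −2.28 ± 0.13 SE, adjusted p = 1.40e-09), and Ccnd2, the cyclin known from granulosa cells, was not called. Of the cell cycle inhibitors 6 of 12 were lower and 2 higher. Cdkn1b, which keeps follicle cells at rest, had 539 and 637 CPM in the E16.5 libraries and 55.2 and 54.5 CPM in the P6w libraries (log2 fold change −3.42 ± 0.13 SE, adjusted p = 1.54e-11). Btg2 had 2209.5 and 4286 CPM at E16.5 and 1016 and 992 CPM at P6w.

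Extracellular matrix genes were mostly lower. Of 35 tested collagen chains 4 were called higher and 24 lower, with a median of −1.54. The fibrillar chain Col1a1 had 906 and 810.5 CPM in the E16.5 libraries and 64.5 and 75.1 CPM in the P6w libraries (log2 fold change −3.62 ± 0.14 SE, adjusted p = 1.51e-11). Col1a2 (795 and 709.7 CPM at E16.5 and 102 and 115 CPM at P6w) and Col3a1 (756 and 736 CPM at E16.5 and 76.5 and 78.5 CPM at P6w) fell with it. The stromal fibroblast list given above holds these genes. Col11a1 rose (12.7 and 8.75 CPM at E16.5 and 59.5 and 61.3 CPM at P6w; log2 fold change 2.48 ± 0.22 SE, adjusted p = 1.47e-07). Of the laminins and other glycoproteins 7 of 30 were higher and 20 lower, beside 26.3% and 29.8% of all tested genes. Eln, the elastin gene, had 194 and 195 CPM in the E16.5 libraries and 9.89 and 11.5 CPM in the P6w libraries (log2 fold change −4.18 ± 0.18 SE, adjusted p = 5.39e-11). Sparc had 2487 and 2395 CPM at E16.5 and 857 and 920.5 CPM at P6w. Vcan, the proteoglycan of the follicle matrix, rose (16.4 and 8.75 CPM at E16.5 and 60.6 and 61.0 CPM at P6w; log2 fold change 2.26 ± 0.22 SE, adjusted p = 5.89e-07), as did Tnc (16.8 and 17.0 CPM at E16.5 and 53.2 and 55.8 CPM at P6w). Of the proteases and inhibitors 4 of 23 were higher and 15 lower. Mmp2 fell (269 and 203 CPM at E16.5 and 27.9 and 27.9 CPM at P6w; log2 fold change −3.08 ± 0.15 SE, adjusted p = 2.37e-10), and Serpina5, a serine protease inhibitor, had 0 and 1 counts at E16.5 and 62.4 and 62.0 CPM at P6w, 2454-fold (95% counting interval 439.7 to 96982) higher.

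The study printed AMPK signalling genes for P6w and PI3K-Akt genes for E16.5 from these same libraries, so that the counts of these lists are not independent evidence of their direction. All 11 AMPK genes were called higher, with a median of 1.56, and 9 of 10 PI3K-Akt genes lower, with a median of −2.04. Pparg, a nuclear receptor of lipid metabolism, had 0.779 and 0.490 CPM in the E16.5 libraries and 87.9 and 94.6 CPM in the P6w libraries (log2 fold change 7.11 ± 0.25 SE, adjusted p = 7.76e-11). Foxo1, a transcription factor of granulosa cells, had 37.0 and 25.1 CPM in the E16.5 libraries and 752 and 769.8 CPM in the P6w libraries (log2 fold change 4.61 ± 0.17 SE, adjusted p = 1.35e-11). Neither gene is a subunit of AMPK; the subunit gene Prkag2 had 17.4 and 15.9 CPM at E16.5 and 42.2 and 40.6 CPM at P6w. Among the PI3K-Akt genes, Foxo3 had 166 and 204 CPM in the E16.5 libraries and 41.4 and 38.5 CPM in the P6w libraries (log2 fold change −2.21 ± 0.14 SE, adjusted p = 4.52e-09), and the integrin Itga4 had 19.1 and 10.5 CPM at E16.5 and 0.817 and 1.498 CPM at P6w. Cdk6 had 535 and 648 CPM at E16.5 and 298 and 290.3 CPM at P6w.

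The genes with the largest fitted fold changes had few or no counts at one stage. Their order depends on the fit, and several of their bounds lie below measured changes such as those of Hsd17b1, Inhba and Igf2. Apoa4, an apolipoprotein, had 1 and 0 counts at E16.5 and 402 and 411 CPM at P6w, and was 16015-fold (95% counting interval 2874 to 632630) higher. Fetub, a protease inhibitor of the egg coat enzyme, had 0 and 1 counts and 43.7 and 48.7 CPM, 1821-fold (95% counting interval 326 to 71997) higher. No count was found at E16.5 for Gm4926 (at least 114-fold higher), the transporter Slc47a2 (at least 104-fold), the potassium channel subunit Kcne2 (at least 101-fold), Elobl (at least 62.4-fold), Eif4e1b (at least 60.7-fold) and Dynap (at least 58.4-fold). Eif4e1b, which is known from oocytes, had 14.5 and 4.58 CPM at P6w, and the difference between the libraries had the same direction as that of Zp3 and Gdf9. Elobl and Eif4e1b were not called by DESeq2 (adjusted p = 0.0691 and 0.0705). Among the 10 largest fitted falls, Hemgn, Cldn13, Hba-x, Kel, Hbb-y and Rhag are known from red blood cells and their precursors. Cldn13 had 91.5 and 87.0 CPM at E16.5 and no count at P6w (at least 361-fold lower), and Kel was at least 126-fold lower. Prss34, a mast cell and basophil protease, had 26.8 and 31.2 CPM and no count (at least 117-fold lower). Tex101, Tex13b (at least 63.6-fold lower) and 1700013H16Rik (at least 51.6-fold lower) completed these 10.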

How the data were processed

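Bulk RNA-seq values of GSCs were taken as the authors deposited them, as raw counts per gene symbol for 8 libraries of 4 stages. Per the paper's methods and the submitters' processing notes, reads were aligned to mm10 with HISAT2 and counted with featureCounts. The notes also name Trim Galore, FastQC, SAMtools and RSEM, with no versions. No reads were aligned here. Other tables of the series were not used here, and 0 columns of the count table were unmapped. No setting for strand is given in the sources used here, so overlapping and antisense genes cannot be told apart. Hbb-bs shares its counts with a second symbol of identical values and was taken once.

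Low counts were filtered with filterByExpr by stage. TMM factors were applied and genes tested with edgeR 4.0.16 (glmQLFit and glmQLFTest, R 4.3.3) in 1 model of 8 libraries without a replicate term, with the contrast P6w over E16.5. A call required a Benjamini-Hochberg adjusted p below 0.05 over all 16398 genes. SE is the absolute log2 fold change over the square root of F. A stage with no count was set to 3 counts per library, which gives a lower bound, and a stage with 1 to 3 counts per library is given as a ratio with an exact 95% interval, for counting error only. The common dispersion was 0.0172. The steps were tested on simulated data first. The simulation changed few genes between the stages and gave all libraries the same dispersion. These data held many changes and a wider spread at E16.5, so it cannot show the error rates here. The alternatives used other size factors, no filter, DESeq2 1.42.0, a replicate term, trends with length or GC content, only 4 libraries, and each library left out. Another, with mitochondrial genes left out, was chosen after seeing the data.

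Members, lists and tests were chosen with earlier results of these data known. Genes were named as the 10 largest rises and falls with at least 5 CPM and no overlap, as up to 4 members of each list by fitted fold change in each direction and 4 by level, as members that were not called where a pathway step would otherwise be left out, as Foxl2 and Gata4, and as the 5 largest differences each way between the E16.5 libraries. Axin2, Bmp3, Bmp15, Dhcr7, Dlk1, Esr2, Fdxr, Greb1, Hsd3b6, Kcnq1ot1, Mest, Nap1l5, Peg3, Prkag2, Scarb1, Srebf2, Star and Tgfb2 were chosen after their values were seen. Positions and lengths came from GENCODE vM21 on GRCm38, the build called mm10, for 98.6% of tested genes. A length is that of all annotated exons of a gene merged, which can exceed that of any transcript.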

Additional observations from a re-analysis of the deposited data

How the results depend on the processing

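Between 7146 and 9626 genes were called under the alternatives at the same threshold, against 9206, and none of the calls shared with the reported fit turned direction. Requiring at least a 2-fold change left 5339 genes, of which 1992 were higher. Scaling to total counts alone moved the median log2 fold change of all tested genes from −0.04 to −0.20 and the share of calls that were higher from 46.9% to 37.4%. With 1 library left out, 7146 to 9626 genes were called, fewest without P6w replicate 1, and the lone library of that stage was assumed to vary like the others. A replicate block gave 9209 calls. Deviations of same-numbered E16.5 and P6w libraries correlated at −0.06. Each stage gives only 1 deviation per gene, and the E16.5 libraries were on different lanes. The correlation therefore cannot settle whether the numbers pair libraries. With the block, Id3 was called higher (adjusted p = 0.0364). Of the counts of list members by direction, 1144 were within 1.5 times the reported count and 60 were not, all of them counts of 5 or fewer. Without libraries of the other stages, 1 follicle gene was called lower, 1 Wnt ligand, 1 cell cycle inhibitor, 1 imprinted gene and 1 oncofetal gene higher, and 0 adipocyte and 0 liver genes lower. With total counts, 5 follicle and 2 macrophage genes were lower, 1 cell cycle inhibitor and 1 oncofetal gene higher, and 0 endothelial and 0 early response genes higher. With a length trend, 1 meiotic and 2 stromal genes were higher, 0 endothelial genes higher, 1 macrophage gene and 0 adipocyte genes lower. With a GC content trend, 1 meiotic and 2 stromal genes were higher, and 1 macrophage gene and 0 adipocyte genes lower. Without the filter, 5 lymphocyte and 2 early response genes were higher. DESeq2 called 0 endothelial and 0 early response genes higher and 0 adipocyte genes lower, and RLE factors 0 adipocyte genes lower. With 1 library left out, the number called lower ranged from 1 to 3 for follicle genes, from 0 to 1 for macrophage and adipocyte genes and from 1 to 3 for liver genes. The number called higher ranged from 2 to 5 for Hedgehog genes, from 0 to 1 for cell cycle inhibitors and meiotic genes, from 1 to 2 for oncofetal and germ cell genes, from 1 to 4 for lymphocyte genes, from 0 to 2 for stromal genes, from 1 to 3 for ciliated and adipocyte genes and from 0 to 4 for early response genes, and was 0 in each case for endothelial genes. Of named genes, the log2 fold change ranged from −0.70 to 1.09 for Dnajb1 and from −1.73 to 0.15 for Id1, highest without E16.5 replicate 2, and from −1.05 to 0.66 for Mbnl1 and from −0.90 to 0.59 for Serinc1, highest without E16.5 replicate 1. The cause of these changes was not tested. Genes of a few counts per library allowed only bounds or wide counting intervals.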

Other observations

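The following values lie outside the lists above, and the genes were chosen after their values were seen. Genes encoded in the mitochondrial genome took a larger share of the counts at P6w, 6.57% and 6.69%, than at E16.5, 1.31% and 1.43%, and all 13 were called higher. COX1 (written without a prefix in the count table), a subunit of cytochrome c oxidase, had 6506 and 8122 CPM in the E16.5 libraries and 38017 and 37041 CPM in the P6w libraries (log2 fold change 2.36 ± 0.14 SE, adjusted p = 1.39e-09), and CYTB, of complex III, had 866 and 1427 CPM at E16.5 and 8411 and 9079 CPM at P6w. With these 13 genes left out of the fit, 9210 genes were called, and none of the shared calls turned direction.

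Several of the most abundant P6w genes were in none of the lists. Akr1cl, an aldo-keto reductase, had 164 and 221 CPM in the E16.5 libraries and 4536 and 4839.7 CPM in the P6w libraries (log2 fold change 4.61 ± 0.16 SE, adjusted p = 4.83e-12), which per length was 1114 CPM per kb at P6w. Car14, a membrane carbonic anhydrase, rose from 4.63 and 8.38 CPM to 1117 and 1066 CPM, and Cnmd, a cartilage and vessel-limiting protein, from 1.17 and 1.90 CPM to 881 and 949 CPM. Gpx3, a secreted glutathione peroxidase, had 49.7 and 46.1 CPM at E16.5 and 1382 and 1438 CPM at P6w, the amino acid transporter Slc38a5 had 30.0 and 25.8 CPM at E16.5 and 932 and 882 CPM at P6w and the lysosomal protease Ctsl had 253 and 272 CPM at E16.5 and 2769 and 2931 CPM at P6w. In each of them both P6w libraries were above both E16.5 libraries, as in 76.6% of tested genes in one direction or the other.

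Genes of the opposite kind were high in the fetal cells. Ncam1, a cell adhesion molecule, fell from 403 and 436 CPM to 9.72 and 13.2 CPM (log2 fold change −5.19 ± 0.16 SE, adjusted p = 2.72e-12), and the growth factor Ptn had 213 and 190.2 CPM at E16.5 and 2.86 and 4.83 CPM at P6w. Mdk, a growth factor related to Ptn, had 232 and 277 CPM at E16.5 and 12.3 and 19.2 CPM at P6w. Sox11, a transcription factor of fetal tissues, had 243 and 206 CPM at E16.5 and 2.37 and 7.07 CPM at P6w. Myl9, a myosin light chain, had 1317 and 1305 CPM at E16.5 and 136 and 158 CPM at P6w (log2 fold change −3.16 ± 0.13 SE, adjusted p = 2.65e-11).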
